A study of Mus musculus with 2 samples.

Results

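The genes described here are 8 genes known as targets of the transcription factor MYRF in oligodendrocytes: Mbp, Cnp, Mag, Mog, Mobp, Trf, Aplp1 and Nkx6-2. They were taken by symbol from the feature list of the study, and all 8 were found among its 31053 features. Single cell RNA sequencing had been carried out on mouse eye cups at postnatal day 0 with 10x Genomics 3′ libraries. There was 1 library of Myrf fl/fl eye cups, the control, and 1 of Rx>cre Myrf fl/fl eye cups, the mutant. Cells of 3 eye cups were pooled before each library was made. Both carried floxed Myrf alleles on both chromosomes, and the mutant alone carried Rx>cre, a transgene that makes cre recombinase in the early eye field, from which both the pigment epithelium and the neural retina arise. The optic nerve, cornea and lens had been dissected away, but 212 lens-like cells were found in the control library and 1 in the mutant. Which exons are floxed is not given in the sources used here, and counts from the 3′ end of Myrf can include transcripts of a deleted allele.

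MYRF is made as a membrane protein that cuts itself, after which its DNA-binding part enters the nucleus. In oligodendrocytes, the myelin-forming glia of the central nervous system, it is required for the genes of the myelin sheath, and it acts there together with SOX10. TMEM98 is a membrane protein that binds MYRF. In the eye, Myrf is known from the retinal pigment epithelium (RPE), a pigmented cell layer behind the photoreceptors that forms no myelin. The comparisons asked which of the oligodendrocyte targets were transcribed in RPE and in glia at this age, and whether they were lower in the mutant.

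Levels are unique molecular identifiers (UMIs, each marking 1 captured transcript) summed over the cells of a class and given as CPM, that is, scaled to 1000000 UMIs of that class. Ratios are log2 of mutant over control after 1 CPM was added to each. With 1 library per genotype no test between genotypes was possible. The 95% intervals are exact Poisson intervals, or exact conditional intervals of the ratio of the counts with nothing added, and they cover counting error only. The spread between animals was not measured. A gene is called lower or higher here when that interval leaves out 0 on the log2 scale, and included in a comparison when it had at least 20 UMIs over both libraries in the class.

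The control library held 14305 barcodes and 79017429 UMIs, and the mutant library 12222 barcodes and 76272867 UMIs, with medians of 4201 and 4952 UMIs per barcode. After filtering, 12514 control and 10851 mutant cells remained, in 37 clusters. The listed genes and the RPE markers took no part in the clustering. The RPE-like class was 1 cluster of 487 control and 190 mutant cells in which 9 of the 10 RPE markers were enriched. Its cells differed in depth, with a median of 2534 UMIs per control cell and 10618.5 per mutant cell. The summed RPE markers stood at 29742 CPM (control) and 21196 CPM (mutant), and Rpe65 was at 0 in the mutant. Myrf was at 231 CPM in control RPE-like cells (745 UMIs) and at 27.7 CPM in mutant ones (63 UMIs), a log2 ratio of -3.01 (from -3.45 to -2.69). In other named classes Myrf did not exceed 10.6 CPM in either library. The libraries shared 59 barcode sequences.

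No cluster was named for the oligodendrocyte lineage. In an unnamed pigment cluster of 30 control and 18 mutant cells, 4 of the 10 markers of that lineage were enriched, beside all 10 melanocyte markers, Pax3 among them. Opalin, a marker of myelinating oligodendrocytes, had 1 UMI over all kept cells, in the mutant library. Olig2 was highest in neurogenic-like cells, at 246 and 260.5 CPM, and Pdgfra was highest among named classes in astrocyte-like cells. The glia in the data were a Schwann or glia-like class of 20 control and 18 mutant cells, with Scn7a, Foxd3 and Sox10 among its leading genes, and an astrocyte-like class of 31 and 33 cells, led by Cartpt, Fbxo2, Gfap and S100b. Gpr17, a receptor of oligodendrocyte precursors, was found mainly in the Schwann or glia-like class, with 25 of its 38 control UMIs and 37 of its 42 mutant UMIs.

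Trf and Aplp1 were counted in many control RPE-like cells, and both were several-fold lower in the mutant. Mag and Mbp were counted in control RPE-like cells at a low level and were lower in the mutant as well. Cnp was counted at like levels in both genotypes. Mog, Mobp and Nkx6-2 had no UMI in any RPE-like cell of either library. Of the 5 members with enough UMIs, 4 were lower and 1 (Cnp) had an interval that included 0. Among all 11035 genes compared in RPE-like cells, 14.2% had an interval below 0 and 12.7% one above 0. All 4 lower members had a log2 ratio of -1 or less, against 5.12% of all genes compared, while 2.59% had a ratio of 1 or more. The median log2 ratio was -2.44 over the 5 members and -0.02 over all genes compared. The former is the ratio of Mag, which passed the minimum through its control UMIs (22 control, 1 mutant). It was -3.68 with 0.1 CPM added and -1.12 with 5 CPM, so nothing is read from that median about the set. Trf and Aplp1 had been named by the study as lower in these same libraries, so their direction here is not independent evidence.

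**Figure D1:**
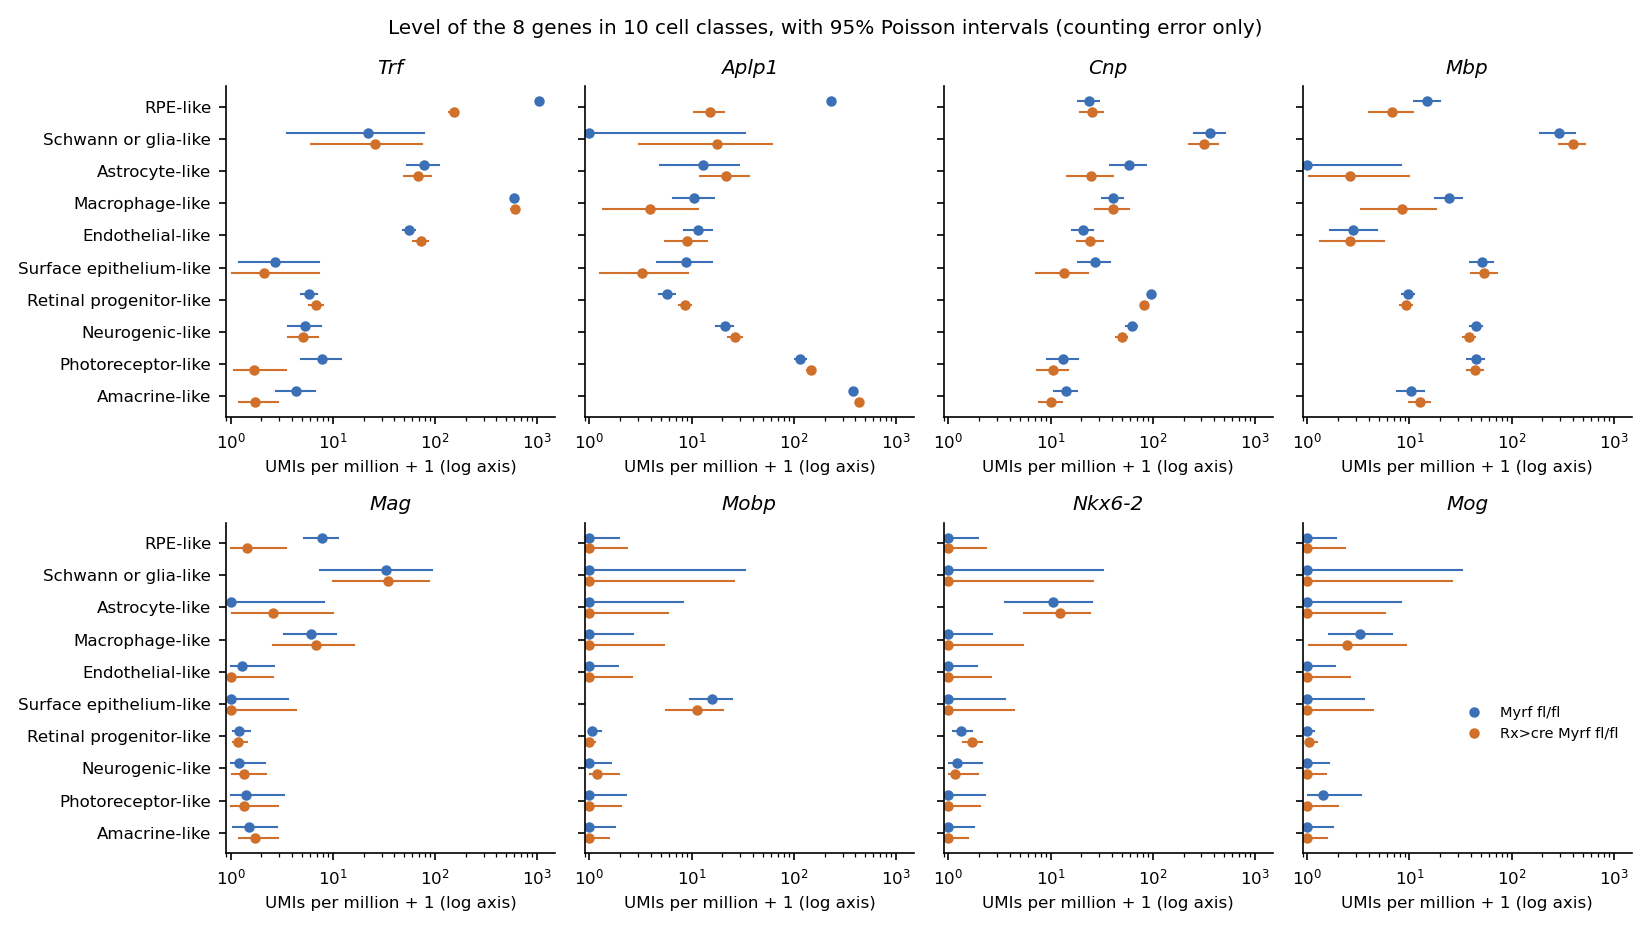
Each panel plots 1 of the 8 genes, with its level in 10 cell classes as CPM plus 1 on a log axis, for Myrf fl/fl (blue) and Rx>cre Myrf fl/fl (orange), and lines giving 95% Poisson intervals of counting error. Trf and Aplp1 fall in RPE-like cells from 1035 to 152 and from 229 to 14.1 CPM, while in macrophage-like cells Trf stays at 588 and 606 CPM and in amacrine-like cells Aplp1 stands at 380.2 and 433 CPM.

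The promoter sequences of 6 of the 8 members were in the RefSeq table (GRCm38.p6), and those of Trf and Mbp were not. The letters CTGGCAC and CTGGTAC, which are known from MYRF binding, were searched on both strands (as GTGCCAG and GTACCAG on the other). The 3 sequences shown are the 250 bases before the start of Mag, lower in mutant RPE-like cells, of Cnp, which was not, and of Aplp1, the member with the lowest ratio, so that the letters can be set beside the ratios. They run 5′ to 3′ on the strand of the gene, and capitals mark a match.
Mag, chr7:30914864-30915113, minus strand: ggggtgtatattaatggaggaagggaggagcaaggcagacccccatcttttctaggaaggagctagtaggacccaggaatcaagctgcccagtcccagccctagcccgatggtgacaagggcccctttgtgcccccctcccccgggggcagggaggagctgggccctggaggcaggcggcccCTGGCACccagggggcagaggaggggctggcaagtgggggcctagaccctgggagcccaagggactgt
Cnp, chr11:100574689-100574938, plus strand: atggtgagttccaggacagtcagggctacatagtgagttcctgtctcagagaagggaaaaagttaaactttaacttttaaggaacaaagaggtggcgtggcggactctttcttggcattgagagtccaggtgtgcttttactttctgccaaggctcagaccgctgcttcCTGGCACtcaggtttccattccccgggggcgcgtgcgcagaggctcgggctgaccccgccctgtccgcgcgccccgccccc
Aplp1, chr7:30445583-30445832, minus strand: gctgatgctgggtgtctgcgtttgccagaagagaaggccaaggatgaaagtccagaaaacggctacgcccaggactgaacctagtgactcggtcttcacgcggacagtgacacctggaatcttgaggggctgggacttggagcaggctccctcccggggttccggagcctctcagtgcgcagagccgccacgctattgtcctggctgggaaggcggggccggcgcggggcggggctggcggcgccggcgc

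CTGGCAC begins 68 bases before the start of Mag and 81 bases before that of Cnp. In the window of Aplp1 neither set of letters occurred. The window of Mog held GTACCAG, 83 bases before its start, and those of Mobp and Nkx6-2 held neither. RefSeq gives Mag other starts too, and the same CTGGCAC lies 9 bases before one of them, while the 250 bases before another (chr7:30914322-30914571) held neither set of letters. Among the 32851 promoters of the table, 4.19% held CTGGCAC on either strand in the 250 bases before the start, 1.83% held CTGGTAC and 5.93% held at least 1 of them. A match describes the letters only.

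Trf encodes transferrin, the secreted protein that carries iron, and is made by oligodendrocytes as well as by liver. The gene lies at chr9:103204001-103230444 on the minus strand (GRCm38, GENCODE M21) and overlaps the gene model Gm20425 on the same strand, and reads that fit both genes can go uncounted. The control RPE-like class held 3337 Trf UMIs, 1035 CPM (from 1000.4 to 1071). Mutant RPE-like cells held 345 UMIs, 152 CPM (from 136 to 169). Trf was thus 6.82-fold lower in the mutant (from 6.10 to 7.64), a log2 ratio of -2.76 (from -2.93 to -2.61). Of the 11035 genes compared, 69 had a lower ratio.

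The RPE-like class was the highest of all classes for Trf in the control and not in the mutant. Macrophage-like cells, which came next in the control, had 588 and 606 CPM (ratio 0.04, from -0.12 to 0.21). The macrophage-like class held 263 control and 72 mutant cells. Astrocyte-like cells followed at 76.9 and 67.6 CPM, with intervals that overlapped those of endothelial-like cells at 55.0 and 71.9 CPM. The endothelial-like ratio was 0.38 (from 0.06 to 0.71), above 0 like that of 6.46% of the 10737 genes compared there. Schwann or glia-like cells held 2 and 3 Trf UMIs. Trf was thus not lower in the mutant in the macrophage-like, astrocyte-like or endothelial-like classes, although the difference between classes was not tested. Photoreceptor-like cells held 16 and 2 UMIs (6.79 and 0.68 CPM) and amacrine-like cells 13 and 4 (3.36 and 0.74 CPM). Both were under the minimum for a comparison, with fewer UMIs in the mutant. Neurogenic-like cells held 21 and 24 UMIs, a ratio of -0.06 (from -0.98 to 0.84).

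To set aside the unequal depth, each cell was thinned to 1000 UMIs, which left out 100 control and 25 mutant RPE-like cells that were shallower. The share of RPE-like cells with a Trf UMI was then 36.2% for the control (from 31.4% to 41.2%) and 9.70% for the mutant (from 5.64% to 15.3%). The unthinned shares were 50.7% and 38.4%. The thinned share in amacrine-like cells, which should lack transferrin, was 0.28% for the control and 0% for the mutant (0 counts allow up to 0.31%), at median depths of 4987 and 5425 UMIs. Within ranges of depth the ratio was -1.62 in cells of up to 2000 UMIs, -2.77 from there to 4000, -2.52 from there to 8000 and -2.85 above 8000 UMIs.

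Trf varied widely among single control RPE-like cells. Of the 195 control cells with over 4000 UMIs, 63 (32.3%) had no Trf UMI, 69 were at or below 1000 CPM and 63 were above it, with up to 127 Trf UMIs in 1 cell. Of the 132 mutant cells of that depth, 70 (53.0%) had no Trf UMI, 59 were at or below 1000 CPM and 3 were above it. The upper quartile of the single cells was 1722 CPM (control) and 163 CPM (mutant). The lower level of the mutant thus held more cells without Trf and fewer cells with a high level. These ranges are limits set after the values were seen, not cell types. In the control, 34 of the 195 cells had 1 or 2 Trf UMIs and 8 lay between 800 and 1200 CPM. In the mutant, 30 of the 132 cells had 1 or 2 Trf UMIs and 1 lay between those limits.

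**Figure D2:**
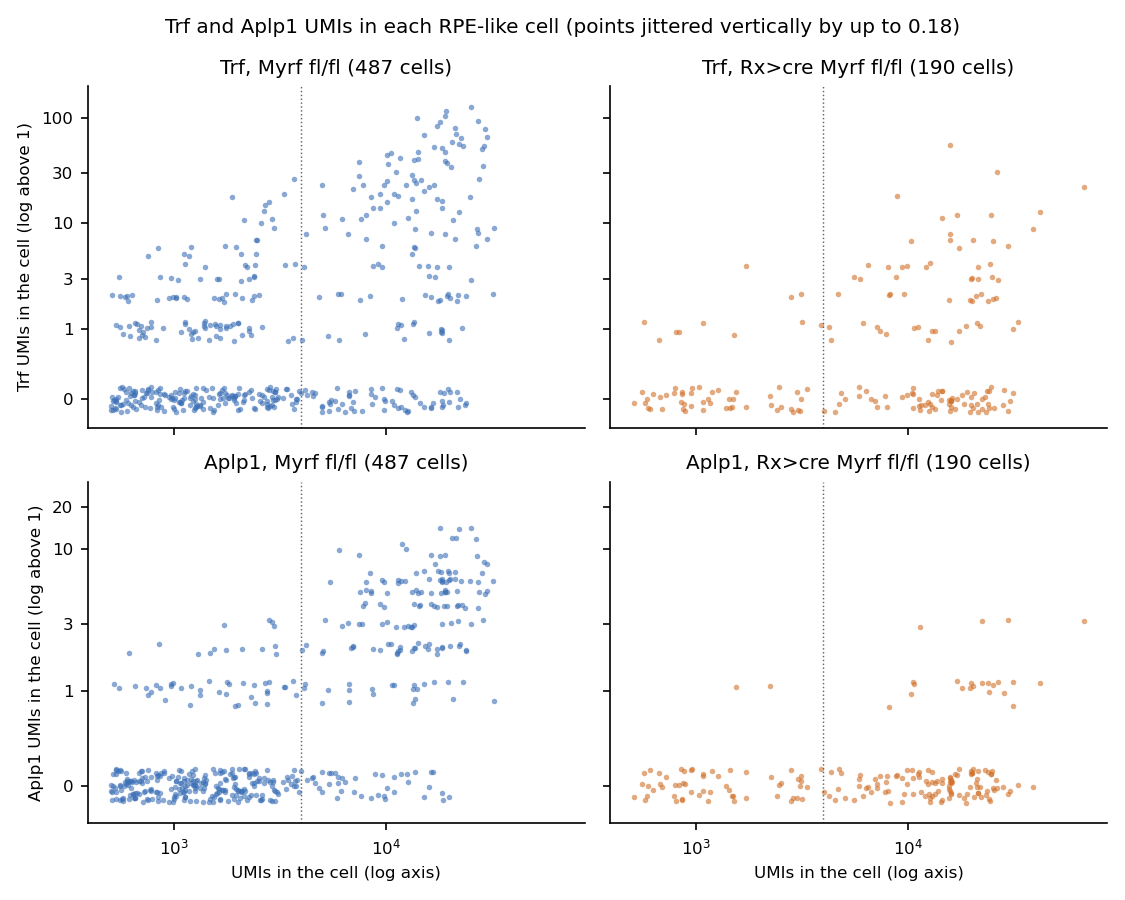
Each point is 1 RPE-like cell, with its total UMIs on a log x axis and its Trf (top) or Aplp1 (bottom) UMIs on a y axis that is linear to 1 and log above, for Myrf fl/fl (left) and Rx>cre Myrf fl/fl (right), and a dotted line at 4000 UMIs. Among cells to the right of the line, Trf is spread from 0 to 127 UMIs in the control, and the share with Aplp1 is 79.5% (control) and 16.7% (mutant).

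The control cells without Trf differed from those with over 1000 CPM of Trf in some genes of the ciliary margin, the rim of the eye cup where RPE meets ciliary epithelium. Of the 10 ciliary margin markers, 6 had a higher level in the cells without Trf (Wfdc1, Zic1, Zic2, Otx1, Msx1 and Gja1) and 4 a lower one. The lower ones were Rdh10 (898 against 1934 CPM), Bmp4 (405 against 622 CPM), Wls (214 against 383 CPM) and Mitf (165 against 206 CPM). Wfdc1 and Zic1 are described further, a choice made after their values were seen. Wfdc1, a marker of that rim, had 171 UMIs in the 63 control cells without Trf (241 CPM) and 2 UMIs in the 63 cells with over 1000 CPM of Trf (2.13 CPM). Zic1, a transcription factor of the same list, had 74 UMIs in the former (104 CPM) and 1 in the latter (1.07 CPM). Ttr, the transthyretin gene and an RPE marker, stood at 2271 CPM without Trf and at 6321 CPM in the cells with the most Trf. Of the 10 RPE markers, 9 had a lower level in the cells without Trf. Tyrp1 was at 941 and 1780.0 CPM, Tyr at 705 and 1139 CPM, Pmel at 10412 and 15185 CPM, Slc45a2 at 84.4 and 133 CPM and Kcnj13 at 63.3 and 109 CPM. Dct (5214 and 6025 CPM) and Mlana (1219 and 1283 CPM) differed less, Rpe65 had 0 and 8 UMIs, and Trpm1 was higher without Trf, at 1403 against 1209 CPM. In the mutant the 70 cells without Trf had 16 Wfdc1 UMIs (14.7 CPM) and 11 Zic1 UMIs (10.1 CPM). The summed ciliary margin markers of the whole class were at 3085 and 1646 CPM, with none of the 10 at 0 in either. That sum is no measure of the number of rim cells. In cells without Trf, Rdh10 was at 898 (control) and 187 CPM (mutant), and Gja1 at 673 and 882 CPM. Among cells with over 4000 UMIs, 25.1% (control) and 31.1% (mutant) had a UMI of Wfdc1, Otx1, Zic1, Zic2 or Msx1. Leaving out every cell with a UMI of Wfdc1, Otx1, Zic1, Zic2 or Msx1 removed 74 control and 44 mutant cells and gave a Trf ratio of -2.86, an alternative chosen after the data were seen. The ratios of Aplp1 and Mbp without those cells were -4.23 and -1.19, and Mag had 18 control and 0 mutant UMIs.

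Aplp1 encodes amyloid precursor-like protein 1, a membrane protein best known from neurons. It lies at chr7:30434982-30445535 on the minus strand, and no other annotated gene overlapped it. Control RPE-like cells held 739 Aplp1 UMIs, 229 CPM (from 213 to 246). Mutant RPE-like cells held 32 UMIs, 14.1 CPM (from 9.63 to 19.9). The gene was 16.3-fold lower in the mutant (from 11.4 to 24.0), a log2 ratio of -3.93 (from -4.58 to -3.51), and 28 of the 11035 genes compared had a lower ratio.

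Amacrine-like cells, a class of retinal interneurons, were the class with most Aplp1, at 380.2 and 433 CPM. Their ratio was 0.19 (from 0.09 to 0.28), above 0 like that of 9.45% of the 11573 genes compared in that class. Photoreceptor-like cells held 115 and 147 CPM, a ratio of 0.35 (from 0.13 to 0.58), where 6.57% of the 10667 genes compared had an interval above 0. In the control the RPE-like class was between these, with intervals that did not overlap either. In the mutant it was at 14.1 CPM, within the counting intervals of astrocyte-like (20.9 CPM) and mesenchyme-like cells (16.4 CPM). Retinal progenitor-like cells were at 4.71 and 7.58 CPM, a ratio of 0.59 (from 0.31 to 1.07), in a class where 20.1% of the 13771 genes compared had an interval above 0. Aplp1 was thus lower in mutant RPE-like cells and higher in these classes of the neural retina, which the cre transgene also reaches, although that difference between classes was not tested.

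In the thinned cells the share with an Aplp1 UMI was 16.8% for control RPE (from 13.2% to 20.9%) and 1.82% for mutant RPE (from 0.38% to 5.22%). Unthinned, the shares were 42.3% and 12.6%. In endothelial-like cells, which stood for the background, the thinned shares were 1.05% and 1.27%, at median depths of 4609 and 9185 UMIs. The mutant RPE-like share was not separable from the share of this 1 class. By summed CPM, mutant RPE-like cells were at 14.1 (from 9.63 to 19.9). Mutant endothelial-like cells were at 7.99 (15 UMIs), retinal progenitor-like cells at 7.58 and mesenchyme-like cells at 16.4. Among cells with over 4000 UMIs, 155 of the 195 from the control (79.5%) and 22 of the 132 from the mutant (16.7%) held an Aplp1 UMI.

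Aplp1 was also found in the cells that lacked Trf. In control cells of that depth its level was 158 CPM without Trf (from 130 to 190), 254 CPM in cells with Trf up to 1000 CPM and 292 CPM in those above (from 258 to 329). In mutant cells it was 15.6 CPM without Trf (from 9.08 to 24.9) and 12.5 CPM with Trf up to 1000 CPM, and the 3 cells above that held no Aplp1 UMI. Every control range was therefore above the corresponding mutant range, also among the cells that lacked Trf. Myrf itself was at 176, 254 and 296 CPM in the same 3 control ranges.

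**Figure D3:**
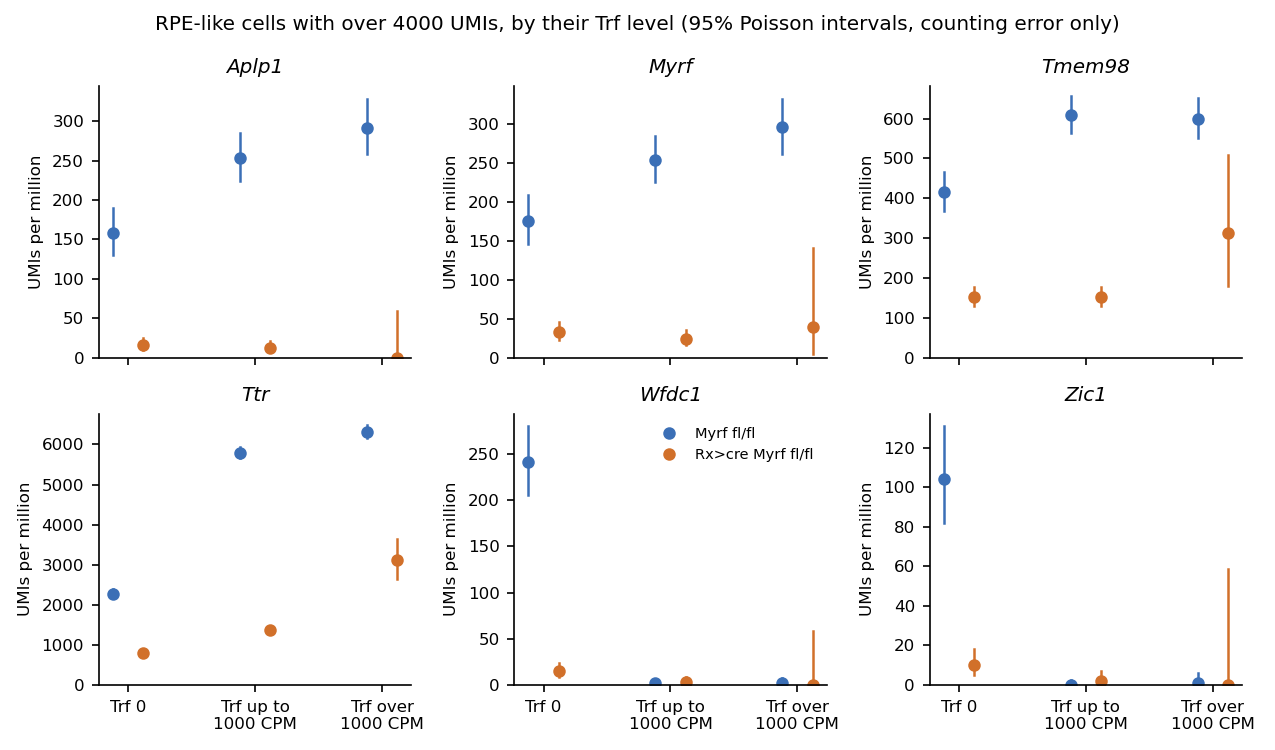
Levels of Aplp1, Myrf, Tmem98, Ttr, Wfdc1 and Zic1 in CPM are plotted for RPE-like cells with over 4000 UMIs in 3 ranges of Trf, for Myrf fl/fl (blue) and Rx>cre Myrf fl/fl (orange), with 95% Poisson intervals of counting error. Wfdc1 and Zic1 sit at 241 and 104 CPM in control cells without Trf and at or below 2.13 CPM in the other control ranges, and Aplp1 is at 158 CPM or more in each control range and at 15.6 CPM or less in each mutant range.

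Cells with and without a Myrf UMI were also set side by side. Among control RPE-like cells with over 4000 UMIs, the 154 cells with a Myrf UMI had 1175 CPM of Trf and 261 CPM of Aplp1. The 41 cells without one had 355 CPM of Trf (from 295 to 423) and 111 CPM of Aplp1 (from 78.7 to 151). They were shallower, with a median of 7143 against 15169.5 UMIs. Among mutant cells of that depth, the 43 with a Myrf UMI had 133 CPM of Trf and 13.2 CPM of Aplp1, and the 89 without one had 161 and 14.1 CPM, with overlapping intervals for both genes. Tmem98 was at 609 and 190 CPM in the control cells with and without a Myrf UMI. In the mutant it was at 175 and 144 CPM, with overlapping intervals. Control cells with a Myrf UMI thus had more Trf, Aplp1 and Tmem98, and no such difference was seen in the mutant. Whether the split follows Myrf, depth or the kind of cell was not tested, nor was the difference between genotypes.

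Mag encodes myelin-associated glycoprotein, an adhesion protein of the myelin membrane next to the axon. It lies at chr7:30899176-30914873 on the minus strand, on the same chromosome as Aplp1. Control RPE-like cells held 22 Mag UMIs, 6.82 CPM (from 4.28 to 10.3), and mutant ones 1 UMI, 0.44 CPM (from 0.011 to 2.45). Its ratio of CPM was 15.5-fold (from 2.51 to 639.9), with a log2 ratio of -2.44 after 1 CPM was added. The control UMIs were spread over cells, since 15 of the 195 deep control cells and 1 of the 132 deep mutant cells had one. Schwann or glia-like cells held 3 control and 4 mutant UMIs (31.9 and 33.5 CPM), and macrophage-like cells 9 and 4 (5.08 and 5.89 CPM). In retinal progenitor-like cells Mag was at 0.21 and 0.18 CPM, and no class of neurons exceeded 0.74 CPM. The control RPE-like level was thus above those of progenitors and neurons, while its interval overlapped those of the Schwann or glia-like and macrophage-like classes.

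Mbp encodes myelin basic protein, which compacts the myelin membrane. Control RPE-like cells held 45 Mbp UMIs, 14.0 CPM (from 10.2 to 18.7), and mutant ones 13 UMIs, 5.72 CPM (from 3.05 to 9.79). The gene was 2.44-fold lower in the mutant (from 1.29 to 4.93), a log2 ratio of -1.15 (from -2.30 to -0.37). The control level lay in the middle of the classes. It was above that of mesenchyme-like (2.72 CPM, 34 UMIs), pericyte-like (1.91 CPM, 9 UMIs) and endothelial-like cells (1.77 CPM, 6 UMIs), and of retinal progenitor-like cells (8.67 CPM, from 7.39 to 10.1). Control astrocyte-like cells had 0 Mbp UMIs. The RPE-like level overlapped that of amacrine-like cells (9.29 and 11.6 CPM) and was below that of photoreceptor-like cells (43.3 and 42.8 CPM) and surface epithelium-like cells (49.8 and 53.1 CPM). After thinning, a Mbp UMI remained in 1.29% (control) and 0% (mutant, where 0 counts allow up to 1.82%) of RPE-like cells, against 0.97% and 0.94% of amacrine-like cells. Macrophage-like cells also had less in the mutant, 41 against 5 UMIs, a ratio of -1.53 (from -3.35 to -0.31), where 6.21% of the 8871 genes compared had an interval below 0.

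In glia, Mbp was clearly present. The 20 control Schwann or glia-like cells held 27 Mbp UMIs, 287 CPM (from 189 to 418), and the 18 mutant cells 47 UMIs, 394 CPM (from 289 to 524). That was the highest level of any class, and the ratio of 0.45 had an interval that included 0 (from -0.26 to 1.19). Of the 1882 genes compared in that class, 4.04% had an interval below 0 and 5.58% one above 0, and neither Mbp nor Cnp was among them. Astrocyte-like cells held 0 control UMIs and 1 mutant UMI. Myrf had 1 control UMI and 0 mutant UMIs in Schwann or glia-like cells. A dependence of Mbp on Myrf could therefore not be assessed there. Whether cre had acted in these cells was not tested.

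Cnp encodes the myelin enzyme 2′,3′-cyclic nucleotide 3′-phosphodiesterase, and it lies at chr11:100574904-100591729, where Dnajc7 overlaps it on the other strand. Control RPE-like cells held 73 Cnp UMIs, 22.6 CPM (from 17.8 to 28.5), and mutant ones 55 UMIs, 24.2 CPM (from 18.2 to 31.5). The log2 ratio was 0.09 (from -0.44 to 0.62), and 60.8% of the genes compared had a lower ratio. The Cnp ratio was -1.06 in cells with a Y-linked UMI but without Xist (38 control and 6 mutant UMIs). It was 0.56 in cells with Xist but without a Y-linked UMI (16 and 37 UMIs). The former were 127 control and 34 mutant cells and the latter 80 and 74, so the RPE-like cells of the libraries differed in this make-up. Cnp was highest in Schwann or glia-like cells, with 34 and 38 UMIs (362 and 318 CPM, ratio -0.18, from -0.89 to 0.53). Retinal progenitor-like cells held 1780 and 1817 UMIs, 95.3 and 80.6 CPM, a ratio of -0.24 (from -0.34 to -0.15), in a class where 10.9% of genes had an interval below 0. In astrocyte-like cells 24 control and 15 mutant UMIs gave 57.7 and 24.1 CPM, a ratio of -1.22 (from -2.29 to -0.27), in a class where 5.71% of the 6461 genes compared had an interval below 0. That ratio rests on few UMIs, and thinning the cells left 0 control UMIs and 1 mutant UMI, too few to give a direction.

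Mog, Mobp and Nkx6-2 had 0 UMIs in RPE-like cells and also in the Schwann or glia-like class, whose small total allows up to 31.9 CPM (control) and 25.1 CPM (mutant). No UMI among the 3223609 of control RPE-like cells allow a level of up to 0.931 CPM, and among the 2271844 of mutant ones up to 1.32 CPM. Mog, myelin oligodendrocyte glycoprotein of the outer myelin surface, had 7 UMIs in all kept control cells and 2 in mutant cells, of which 4 and 1 were in macrophage-like cells. Mobp, a protein of compact central myelin, had 21 and 11 UMIs. Of these, 17 and 9 were in surface epithelium-like cells (14.9 and 10.2 CPM), a keratin-expressing class. The gene model Gm38642 overlaps Mobp on the same strand. Nkx6-2, a homeodomain factor of the oligodendrocyte lineage, was found in astrocyte-like cells, with 4 and 7 UMIs (9.61 and 11.3 CPM), and in 6 and 16 UMIs of retinal progenitor-like cells.

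**Figure D4:**
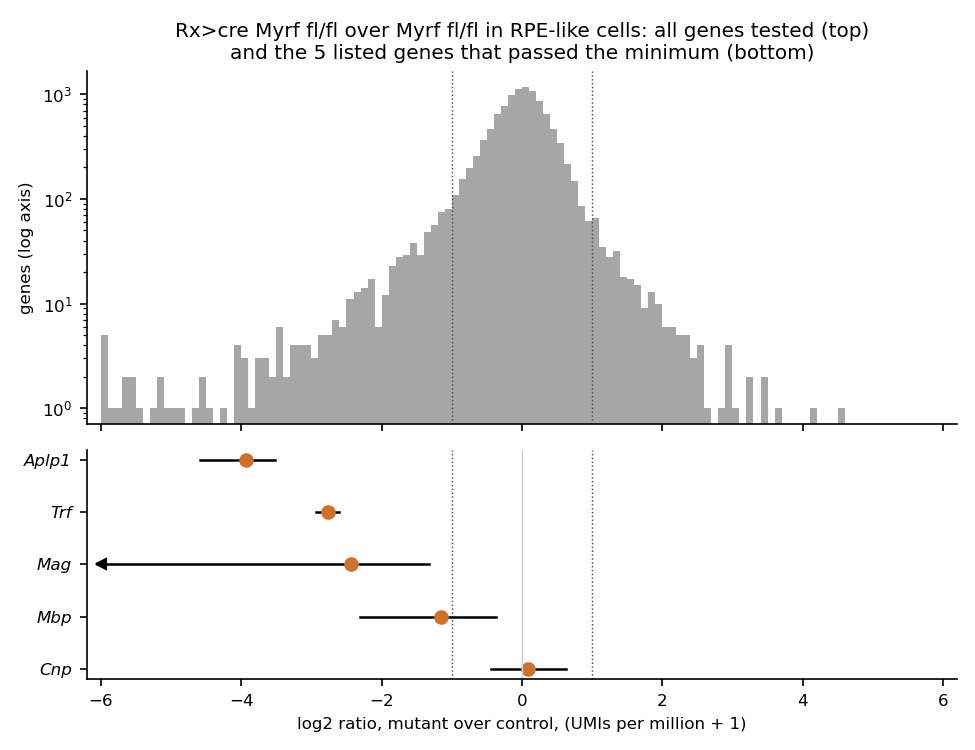
The top panel shows the number of genes, on a log axis, at each log2 ratio of Rx>cre Myrf fl/fl over Myrf fl/fl in RPE-like cells for all 11035 genes compared (values beyond 6 are drawn at 6), and the bottom panel the 5 listed genes with their 95% counting intervals, an arrow marking an interval that goes on. Aplp1 at -3.93, Trf at -2.76 and Mag at -2.44 lie in the lower tail, Mbp is at -1.15 and Cnp at 0.09.

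Further genes of myelin, of the oligodendrocyte lineage, of iron handling and of the amyloid precursor family were described beside the members. Of 26 other myelin and oligodendrocyte genes, 13 had enough UMIs in RPE-like cells, of which 7 were lower, 1 was higher and 5 had intervals that included 0, with a median log2 ratio of -0.44 (over all genes compared, 14.2% were lower and 12.7% higher, with a median of -0.02). The lowest was Gjb1, the gap junction protein connexin 32, with 162 control and 0 mutant UMIs, at least 38.1-fold lower against a limit of 3 UMIs over the mutant class. Ermn, an actin-binding protein of the oligodendrocyte cytoskeleton, had 606 and 104 UMIs, a ratio of -2.01. Tspan2, a tetraspanin, had 49 and 16 UMIs, a ratio of -1.01. The higher gene was Gsn, which severs actin filaments, at 32.6 and 56.8 CPM (ratio 0.78, from 0.42 to 1.19). The remaining 13 were under the minimum, and Opalin, Gjc3 and Bcas1 were among those at 0 in both libraries.

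Of 12 regulators of the lineage, 6 had enough UMIs, of which 5 were lower and 1 had an interval that included 0, with a median of -1.51, against 14.2% lower over all genes compared. That count holds Myrf itself, the targeted gene, and Sox10 and Tmem98, whose lower levels were known when the list was drawn up. Sox10, the factor that acts beside MYRF, had 236 control and 9 mutant UMIs in RPE-like cells, a ratio of -3.90 (from -5.35 to -3.26). In Schwann or glia-like cells it had 91 and 101 UMIs. Tmem98 had 1713 and 354 UMIs, a ratio of -1.76. Sox8, of the same SOX group, had 45 and 12 UMIs, a ratio of -1.25. Myrf, Tmem98, Sox10, Ermn and Gjb1 were known to be lower in these libraries when the lists were drawn up.

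Among 10 genes of iron handling, the pathway of Trf, 9 had enough UMIs. Of these, Cp was lower, Fth1 and Ftl1 were higher and 6 had intervals that included 0, with a median of 0.06, against 14.2% lower and 12.7% higher over all genes compared, so nothing is read from these counts about the list. Cp encodes ceruloplasmin, a ferroxidase, and had a ratio of -0.90 (from -1.53 to -0.38). The ferritin genes, which store iron, had small ratios, with Ftl1 at 6060 and 6524 CPM (0.11, from 0.08 to 0.14) and Fth1 at 2074 and 2459 CPM (0.25, from 0.19 to 0.30). Tfrc, the transferrin receptor, had 27 and 20 UMIs and a ratio of 0.06 (from -0.84 to 0.96). Both relatives of Aplp1 had intervals above 0, App at 661 and 824 CPM (ratio 0.32, from 0.23 to 0.41) and Aplp2 at 280.4 and 318 CPM (ratio 0.18, from 0.04 to 0.33). No gene of iron handling or of the precursor family passed a log2 ratio of 1 in either direction.

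**Figure D5:**
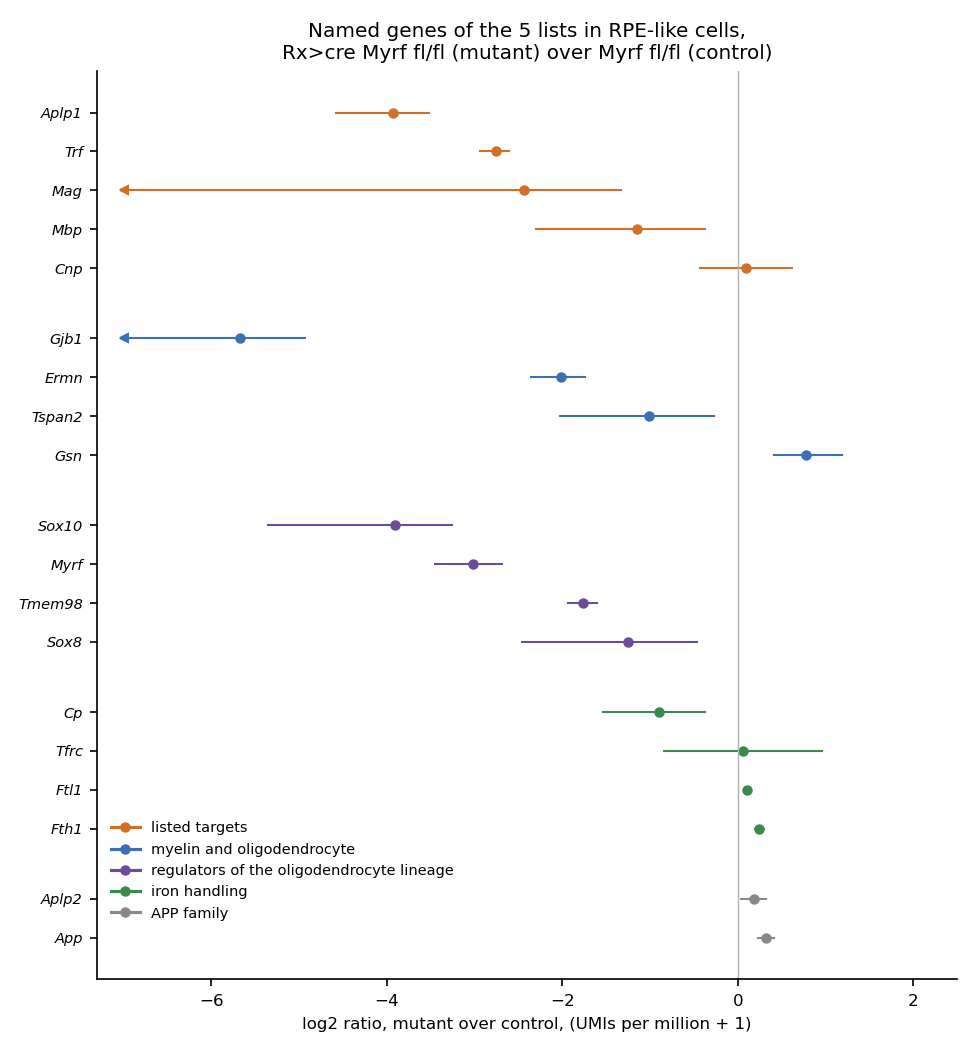
Log2 ratios of Rx>cre Myrf fl/fl over Myrf fl/fl in RPE-like cells are plotted for the genes of the 5 lists that the text names and that had at least 20 UMIs, coloured by list, with 95% counting intervals and arrows where an interval goes on. The lowest points are Gjb1, Aplp1 and Sox10, and the iron handling and APP family points lie between -0.90 and 0.32.

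Markers of other cells within the RPE-like class also differed between the libraries. The summed mesenchyme markers were at 2414 CPM in the control, with 0 of 10 at 0, and at 332 CPM in the mutant, with 1 of 10 at 0, against 72134 and 86469 CPM in the mesenchyme-like class itself, where Trf was at 7.21 and 7.49 CPM and Aplp1 at 19.5 and 16.4 CPM. The macrophage markers, of the other class rich in Trf, were at 58.0 and 41.4 CPM with 5 of 10 at 0 in each library (C1qc, Ptprc, Aif1 and Cx3cr1 in both), against 22041 and 25271 CPM in the macrophage-like class. The Schwann or glia markers were at 141 and 76.1 CPM with 3 of 10 at 0 in both, against 5845 and 6067 CPM in their own class, and Sox10 alone gave 236 of the 453 control UMIs and 9 of the 173 mutant UMIs of that list. The amacrine markers were at 264 and 134 CPM with 0 and 2 of 10 at 0, against 3724 and 3879 CPM in theirs. The lens markers were at 308 and 37.0 CPM with 1 and 5 of 10 at 0, and in lens-like control cells Trf was at 8.12 CPM and Aplp1 at 21.1 CPM. The muscle markers were at 49.3 and 12.3 CPM with 0 and 4 of 10 at 0. The pericyte markers were higher in the mutant, at 275 and 374 CPM with 1 and 2 of 10 at 0, and so were the ganglion cell markers, at 57.4 and 87.2 CPM with 3 and 2 of 10 at 0. Their part in the levels of the listed genes was not tested.

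An unnamed cluster of 30 control and 18 mutant pigmented cells with Pax3 was compared because both RPE and melanocyte markers led it. It held 32 and 18 Trf UMIs (56.8 and 54.5 CPM), a ratio of -0.06 (from -0.98 to 0.82). Aplp1 and Myrf were at 0 UMIs there in both libraries, where 0 counts allow up to 5.33 and 9.09 CPM. No difference in Trf was detectable there at this depth.

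The genes most like the members in pattern were sought over 26 units (13 classes in both libraries) by Pearson correlation of log2 CPM. The points share libraries and differ in depth, and the values are descriptive. Trf was most like Acss1 (0.91), Dok1 (0.88) and B2m (0.88). Aplp1 was most like Map3k13 (0.86), Sv2a (0.85) and 4430402I18Rik (0.83). Cnp was most like Hat1 (0.91), Troap (0.89) and Cenpw (0.88).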

How the data were processed

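Libraries were grouped by the genotype in the labels, 1 per genotype. The authors deposited unnormalized UMI counts for every gene and barcode, made with Cell Ranger against mm10 (GRCm38). The submitters' processing notes and the methods give version 7.1.0 and the matrix headers 3.1.0, and the annotation is not given in the sources used here. The methods' cap of 2000 UMIs per cell was run only as an alternative, since 80.2% of control and 92.1% of mutant barcodes exceeded it.

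Barcodes with at least 200 genes and at most 15% mitochondrial counts were kept. Scrublet (scanpy 1.11.5) called 0% and 5.48% as doublets at its own limit, so the highest-scoring 11.4% and 9.78% (0.8% per 1000 barcodes) were removed. Seurat 5.3.0 integrated and clustered the cells (1964 variable genes, 30 components, resolution 1), with 78 genes, the members and lists included, kept out. Clusters were named from at least 4 markers, and 7 stayed unnamed. The ratio intervals were tried on simulated Poisson sums, the model they assume. That trial does not cover the spread between cells or animals. Members and lists were chosen with earlier results of these data known, and the named list genes were the 4 lowest and 4 highest per list whose interval left out 0, apart from genes that are counted in the lists but not reported here by name. PCR copies are collapsed by UMI, and intervals cover counting error only. Positions came from GENCODE M21 and promoters from RefSeq.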

Additional observations from a re-analysis of the deposited data

How the results depend on the processing

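The ratios of Trf, Aplp1, Mag and Mbp in RPE-like cells stayed negative under all 16 alternatives run (15 planned and 1 chosen after the data were seen), from -3.14 to -1.62 for Trf, -4.35 to -2.75 for Aplp1, -3.68 to -1.12 for Mag and, where both libraries had Mbp UMIs, -1.83 to -0.69 for Mbp. The mutant had 0 UMIs of Mag under 5 of the alternatives and of Mbp under 2, so that those values depend on the CPM added and are no measure of size. Values outside the counting interval were as follows, and the cause was not tested. With a mitochondrial limit of 5%, Trf was at -3.14 and Aplp1 at -3.16. With the cap of 2000 UMIs, Trf was at -1.62, Aplp1 at -2.75 (38 and 1 UMIs), Mbp at -4.53 (5 and 0 UMIs) and Cnp at 1.40 (4 and 2 UMIs). Thinned to 1000 UMIs, they were at -2.56, -3.40 (78 and 3 UMIs), -3.80 (5 and 0 UMIs) and 1.18 (6 and 6 UMIs), and Cnp in Schwann or glia-like cells was at -1.17 (9 and 4 UMIs). When only cells with a Y-linked UMI but without Xist were used, Trf was at -2.39, Aplp1 at -3.27 and Cnp at -1.06 (38 and 6 UMIs), while in cells with Xist and without a Y-linked UMI Cnp was at 0.56 (16 and 37 UMIs). With the mean of per-cell CPM, Trf was at -2.36 and Cnp at 0.85, and the levels were 877 (control Trf), 170.5 (mutant Trf) and 197 CPM (control Aplp1). With 5 CPM added, Mag was at -1.12. Without thinning, shares of RPE-like cells were 50.7% and 38.4% for Trf and 42.3% and 12.6% for Aplp1. Cnp in astrocyte-like cells went from -1.22 to 4.97 when thinned, but on 0 control UMIs and 1 mutant UMI, which give no direction. Cnp in RPE-like cells was negative under 4 of 16 alternatives. No paired analysis was possible because each genotype has 1 library, and for the same reason no replicate could be left out. Few UMIs limit the ratios of Mag and Mbp in RPE-like cells and those of both glial classes.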
